A study of Mus musculus with 16 samples.

Results

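The genes described here were 10 genes of GABAergic (inhibitory) neurons: *Gad1*, *Gad2*, *Slc32a1*, *Sst*, *Npy*, *Vip*, *Pvalb*, *Calb2*, *Reln* and *Lhx6*. They were chosen by name, as genes of GABA synthesis and interneuron identity, from 53679 gene symbols in the table, and the values of all isoforms carrying one symbol were summed. RNA-seq was available for 16 primary cortical neuron cultures from wild-type (wt) mice, with 4 cultures in each of 4 groups. CONTROL-VEH was kept without oxygen–glucose deprivation (OGD) and received vehicle, which the sample labels also call untreated. CONTROL-TIA received 10 μM tianeptine (TIA), an atypical antidepressant, without OGD. OGD-VEH underwent 3-h OGD, an in vitro model of ischemia, after vehicle, and OGD-TIA underwent 3-h OGD after 10 μM TIA. All cultures came from cortex at embryonic day 15, received TIA or vehicle on day in vitro (DIV) 8 and were exposed to OGD or sham on DIV 9. RNA of all groups was taken at 6 h of reoxygenation or the matching time. The study's methods and the labels name no strain, sex, litter or preparation day, so whether cultures shared a preparation is not known here, and p-values measure the spread between these cultures.

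GABAergic neurons make the inhibitory transmitter GABA from glutamate with the decarboxylases encoded by *Gad1* (GAD67) and *Gad2* (GAD65), and load it into synaptic vesicles with the transporter encoded by *Slc32a1* (VGAT). Cortical interneurons arise in the ganglionic eminences and migrate into the cortex, where they are sorted into classes by the neuropeptides, calcium-binding proteins and transcription factors they express. *Lhx6* is the transcription factor of the lineage from the medial ganglionic eminence, which yields the somatostatin and parvalbumin classes. Parvalbumin appears late in the maturation of its class, and vasoactive intestinal peptide and calretinin mark classes from the caudal ganglionic eminence.

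The promoters of 3 neuropeptide genes are shown, because these genes differ in the cyclic AMP response element (CRE), the site through which activity and CREB act on some neuropeptide genes. RefSeq (GRCm38.p6) promoters were matched for 9 of the 10 genes, with 12 promoters in all and none for *Calb2*. Each sequence is the 250 bases upstream of the RefSeq start site, 5′ to 3′ on the strand of the gene, and capitals mark matches to the full element TGACGTCA or its shorter core TGACG on either strand.
*Sst*, chr16:23890845-23891094, minus strand: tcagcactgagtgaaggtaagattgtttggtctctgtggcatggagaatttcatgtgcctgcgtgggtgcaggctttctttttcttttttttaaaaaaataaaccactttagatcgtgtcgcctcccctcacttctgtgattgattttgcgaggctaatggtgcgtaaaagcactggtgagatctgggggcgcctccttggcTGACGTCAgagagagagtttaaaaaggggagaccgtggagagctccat
*Vip*, chr10:5638968-5639217, plus strand: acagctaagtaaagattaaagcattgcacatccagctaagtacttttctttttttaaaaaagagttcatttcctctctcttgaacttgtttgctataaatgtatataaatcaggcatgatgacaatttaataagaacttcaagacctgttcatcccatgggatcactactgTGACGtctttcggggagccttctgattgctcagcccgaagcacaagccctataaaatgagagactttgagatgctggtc
*Npy*, chr6:49822460-49822709, plus strand: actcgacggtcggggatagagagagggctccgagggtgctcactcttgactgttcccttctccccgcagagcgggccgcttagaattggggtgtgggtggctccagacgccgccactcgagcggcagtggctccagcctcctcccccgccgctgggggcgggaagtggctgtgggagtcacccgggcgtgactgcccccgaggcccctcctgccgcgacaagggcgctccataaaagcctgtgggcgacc
The *Sst* promoter held the full element, starting at position -48 from the start site, and was the only one of the 9 genes with it. The full element contains the core on both strands. The core was found in 3 of the 9 genes, *Sst*, *Vip* and *Gad2*, and the *Npy* window held neither. Over 27025 genes with promoters of the same length, 1.77% had the full element and 19.8% the core, and over their 32851 promoters the shares were 1.55% and 17.8%. The GENCODE M21 transcript of *Sst* starts farther upstream than the RefSeq one, inside the window shown. A match describes letters in these windows and says nothing of binding in these cultures.

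Levels are given as FPKM, a read density scaled to isoform length and library depth, so genes of different length can be set side by side. In a gene whose sum rests on a short isoform, as described below for *Gad1* and *Gad2*, the summed FPKM overstates its share of the reads. *Reln* was another such gene: the processed transcript *Reln-205* (891 bases) made up a median of 44.2% of its summed FPKM but 11.8% of its estimated reads. The coding isoform *Reln-207* (11699 bases) made up 19.5% of the summed FPKM and 75.5% of the reads. The order of the genes therefore holds for summed FPKM only. In CONTROL-VEH, *Sst* was the most abundant of the 10 genes at 280 ± 77.8 FPKM (SD, n = 4), followed by *Gad1* at 162 ± 58.3, *Reln* at 64.5 ± 26.2, *Npy* at 49.4 ± 21.2 and *Calb2* at 37.7 ± 23.6. *Slc32a1* (15.6 ± 4.06), *Gad2* (11.3 ± 1.96) and *Lhx6* (7.40 ± 2.04) were lower, and *Vip* (0.852 ± 0.422) and *Pvalb* (0.449 ± 0.232) were lowest. The ranges of neighbours in this order overlapped except between *Gad1* and *Reln*, *Calb2* and *Slc32a1*, and *Lhx6* and *Vip*. The order of *Sst* and *Gad1* was turned in OGD-VEH and not in the other groups: *Sst* was above *Gad1* in 4 of 4 cultures of each CONTROL group, in 1 of 4 of OGD-VEH and in 3 of 4 of OGD-TIA. *Vip* rested on an estimated 5.19 to 47.9 reads per culture and *Pvalb* on 1.21 to 25.2, so single values of these 2 genes carry a large counting error, whereas each culture held at least 91.9 estimated reads for every other gene of the set. The cultures thus expressed the general GABAergic genes and the somatostatin, neuropeptide Y, calretinin and reelin markers well, and the markers of the parvalbumin and vasoactive intestinal peptide classes barely. The defining markers of microglia were near 0, with 1 of 8 past the filter of a mean of 0.5 FPKM.

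**Figure D1:**
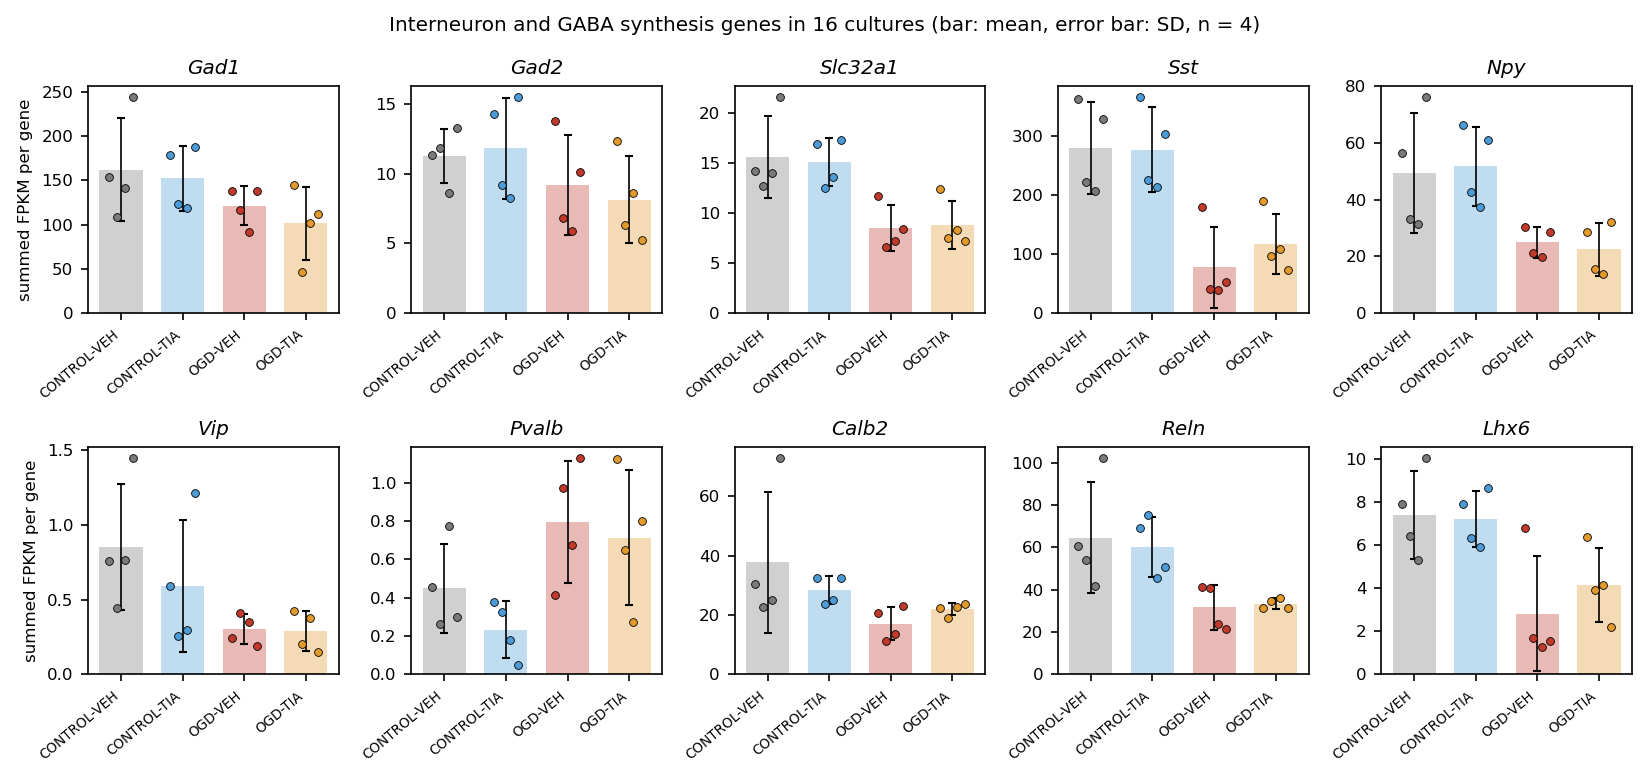
Summed FPKM (linear axis from 0) of each gene in each culture, in the 4 groups, with the mean as a bar and the SD as error bar (n = 4). In *Sst* and *Lhx6*, OGD-VEH 9 lies apart at 181 and 6.80 FPKM, while the other 3 cultures of its group are at 52.1 or less and 1.67 or less.

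Single cultures stood apart, which bears on the comparisons. OGD-VEH 9 was nearer to the CONTROL cultures than the other 3 of its group in *Sst*, *Lhx6* and the pan-neuronal markers. It was the highest of its group in 6 of the 10 genes, and the summed level of 15 pan-neuronal markers was 5370 FPKM in it against 2620 to 4140 in the others and 5920 to 6530 in CONTROL-VEH. OGD-TIA 16 went the other way, with a pan-neuronal sum of 3510 against 5590 to 5780 in the other OGD-TIA cultures, and was the lowest of its group in 6 of the 10 genes. OGD-TIA 13 was the highest of its group in 7 of the 10 genes. Its *Sst* was at 190.4 FPKM against 72.4 to 108.5 in the other OGD-TIA cultures, and its *Lhx6* at 6.36 against 2.20 to 4.13. CONTROL-VEH 4 was the highest of its group in 8 of the 10 genes. The estimated depth was 19.99 to 25.94 M reads per culture. Because RNA of whole cultures was measured, fewer cells of a type and less RNA per cell cannot be told apart in any result below.

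The first question was what OGD did to these genes without the drug (OGD-VEH against CONTROL-VEH). *Sst*, which encodes somatostatin, was lower by the largest amount. It was at 363, 222, 206 and 329.6 FPKM in the CONTROL-VEH cultures and at 181, 39.8, 38.9 and 52.1 in OGD-VEH. All OGD-VEH cultures lay below all CONTROL-VEH cultures, and 3 of them far below. The log2 fold change was -2.14 ± 0.48 (SE), or 4.39-fold lower, with padj 0.0416 (limma, Benjamini-Hochberg over 16346 genes), and *Sst* was the only one of the 10 genes called in this comparison (a padj no higher than 0.05, with a log2 fold change no smaller than 1 in either direction). Of all genes tested, 4.09% were called, and 1.68% were called lower. Without OGD-VEH 9 the log2 fold change of *Sst* was -2.65 with padj 0.00187. Without any one of the other 7 cultures it stayed between -2.27 and -1.91, but padj rose to between 0.0755 and 0.117, and the calls over all genes fell from 668 to between 1 and 71.

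*Npy* encodes neuropeptide Y, which many somatostatin and neurogliaform interneurons contain. It was at 56.3, 33.3, 31.5 and 76.4 FPKM in CONTROL-VEH and at 30.5, 21.0, 19.7 and 28.7 in OGD-VEH. The groups did not overlap, but the log2 fold change of -0.91 ± 0.30 missed the threshold (padj 0.0779). *Vip*, the vasoactive intestinal peptide gene, was at 0.759, 0.442, 0.764 and 1.44 FPKM in CONTROL-VEH and at 0.246, 0.413, 0.351 and 0.192 in OGD-VEH, with a log2 fold change of -1.18 ± 0.40 (padj 0.0827). Its groups did not overlap either, by a narrow margin and on few reads.

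*Lhx6* had the second largest difference. It was at 7.89, 6.40, 5.31 and 10.0 FPKM in CONTROL-VEH and at 6.80, 1.67, 1.25 and 1.57 in OGD-VEH. The groups overlapped through OGD-VEH 9 alone, which lay within the CONTROL-VEH range. The log2 fold change was -1.67 ± 0.49 (padj 0.0608) with this culture and -2.20 without it (padj 0.00246).

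The 3 genes of GABA synthesis and vesicle loading came next. *Gad1* was at 153.5, 108, 142 and 245 FPKM in CONTROL-VEH and at 138, 117, 91.6 and 138 in OGD-VEH, a log2 fold change of -0.38 ± 0.25 (padj 0.302). *Gad2* was at 11.4, 11.9, 8.60 and 13.3 FPKM in CONTROL-VEH and at 13.8, 6.85, 5.92 and 10.2 in OGD-VEH, a log2 fold change of -0.35 ± 0.28 (padj 0.382). Both groups overlapped widely, and neither difference exceeded the spread between cultures. *Slc32a1* was at 14.2, 12.6, 13.9 and 21.6 FPKM in CONTROL-VEH and at 11.7, 6.58, 7.16 and 8.38 in OGD-VEH. Its groups did not overlap, and its log2 fold change of -0.88 ± 0.23 was just short of the threshold (padj 0.051).

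*Reln* encodes reelin, a secreted matrix protein of Cajal-Retzius cells and of several interneuron classes. It was at 60.5, 53.8, 41.7 and 102 FPKM in CONTROL-VEH and at 41.0, 40.8, 23.7 and 21.4 in OGD-VEH, without overlap (log2 fold change -1.01 ± 0.32, padj 0.0711). The nearest values, 41.7 and 41.0 FPKM, nearly met. *Calb2* encodes the calcium-binding protein calretinin. It was at 30.3, 22.5, 25.1 and 72.7 FPKM in CONTROL-VEH and at 20.7, 11.1, 13.7 and 22.9 in OGD-VEH (log2 fold change -1.02 ± 0.39, padj 0.105). The highest OGD-VEH value reached the lowest of CONTROL-VEH, and CONTROL-VEH 4 lay far above its group. Leaving out each culture in turn gave log2 fold changes of *Calb2* from -1.21 to -0.65. *Pvalb*, the parvalbumin gene, was at 0.457, 0.262, 0.773 and 0.302 FPKM in CONTROL-VEH and at 0.413, 0.975, 0.674 and 1.13 in OGD-VEH (log2 fold change 0.72 ± 0.42, padj 0.25), the only one of the 10 with a positive estimate.

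Over the 10 genes, 9 estimates were below 0, against 41.8% of all genes tested, and the median was -0.96 against 0.10 for all genes. In 5 genes (*Slc32a1*, *Sst*, *Npy*, *Vip* and *Reln*) the highest OGD-VEH value was under the lowest CONTROL-VEH value, which held for 9.95% of all genes. An unadjusted p under 0.05 and a lower level were found in 7 of the 10, against 14.9% of all genes. *Vip* and *Pvalb* reached the mean of 0.5 FPKM only through the groups in which they were higher. Among the other 8 genes, 8 estimates were below 0, 4 genes did not overlap and 6 were lower at an unadjusted p under 0.05. The pattern was not particular to the 10 genes. Of 15 pan-neuronal markers, 15 estimates were below 0 (median -0.71). In 8 of them OGD-VEH was lower without overlap, and 11 were lower at an unadjusted p under 0.05. Of 15 markers of glutamatergic neurons, 12 estimates were below 0 (median -0.84). OGD-VEH was lower without overlap in 5 of these and higher in 1, and 10 were lower at that p and 1 higher.

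**Figure D2:**
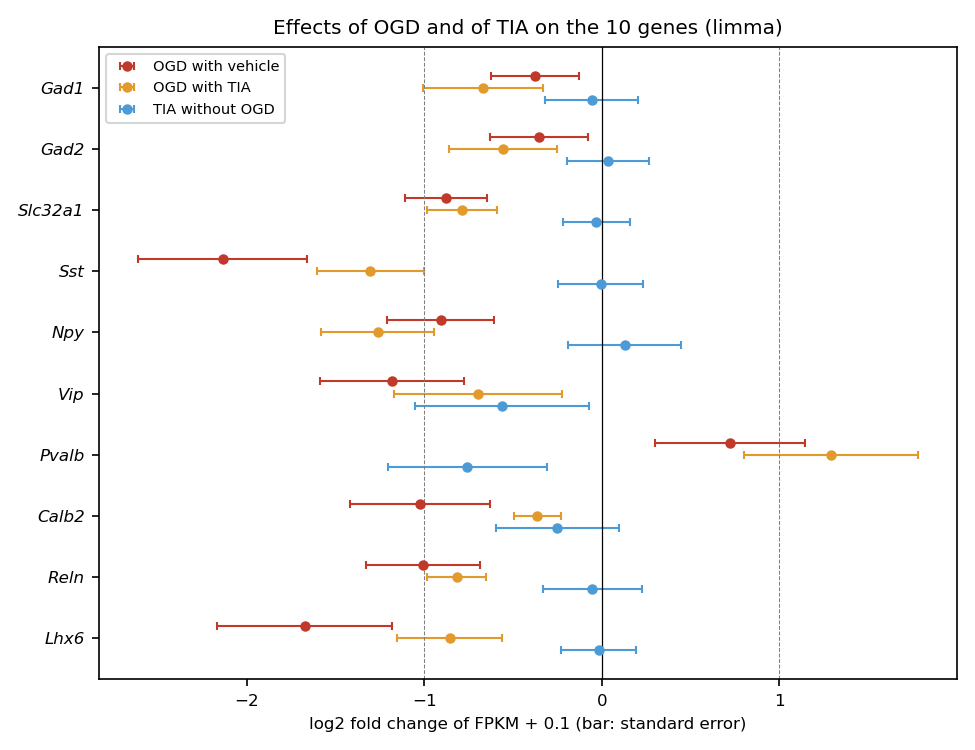
Log2 fold change of FPKM + 0.1 (horizontal axis) with its standard error for each gene, for OGD with vehicle (red), OGD with TIA (orange) and TIA without OGD (blue), each 4 against 4 cultures. With OGD, 9 of 10 estimates lie below 0 in either drug arm, from -2.14 for *Sst* with vehicle, and *Pvalb* lies above 0. *Vip* and *Pvalb* with TIA and *Pvalb* for TIA alone come from the fit without a filter on low values.

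The second comparison was the effect of OGD in cultures pretreated with TIA (OGD-TIA against CONTROL-TIA). *Sst* was at 367, 226, 213 and 304 FPKM in CONTROL-TIA and at 190.4, 96.6, 108.5 and 72.4 in OGD-TIA. The groups did not overlap, and the log2 fold change was -1.30 ± 0.30 (padj 0.116). *Npy* was at 66.4, 42.6, 37.4 and 61.0 FPKM in CONTROL-TIA and at 28.5, 15.5, 13.6 and 32.1 in OGD-TIA, also without overlap (log2 fold change -1.26 ± 0.32, padj 0.13). No gene of the whole table was called here by limma (3174 of 16242 genes had an unadjusted p under 0.05), which leaves 0% of genes called. That share holds for limma on these FPKM only. The study's own count-based test, at the same thresholds, did report genes changed by OGD in this comparison.

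*Slc32a1* was at 16.9, 12.5, 13.5 and 17.3 FPKM in CONTROL-TIA and at 12.3, 7.45, 8.30 and 7.17 in OGD-TIA (log2 fold change -0.79 ± 0.20, padj 0.127). *Reln* was at 69.0, 75.3, 45.4 and 50.8 FPKM in CONTROL-TIA and at 31.4, 34.6, 36.2 and 31.3 in OGD-TIA (log2 fold change -0.82 ± 0.17, padj 0.108). *Calb2* was at 32.3, 23.7, 25.2 and 32.3 FPKM in CONTROL-TIA and at 22.2, 19.0, 22.8 and 23.5 in OGD-TIA (log2 fold change -0.36 ± 0.13, padj 0.206). In these 3 genes the groups did not overlap, although for *Calb2* (23.54 against 23.69 FPKM) and *Slc32a1* (12.33 against 12.48 FPKM) the highest OGD-TIA and lowest CONTROL-TIA values nearly met. With *Sst* and *Npy* this made 5 of the 10 genes without overlap, against 6.72% of all genes tested.

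*Lhx6* was at 7.92, 6.34, 5.91 and 8.65 FPKM in CONTROL-TIA and at 6.36, 3.91, 4.13 and 2.20 in OGD-TIA. Only OGD-TIA 13 reached the CONTROL-TIA range, and the log2 fold change was -0.86 ± 0.30 (padj 0.19). *Gad1* was at 179, 123, 118.5 and 188 FPKM in CONTROL-TIA and at 145, 46.5, 101 and 112.5 in OGD-TIA (log2 fold change -0.67 ± 0.34, padj 0.313), and *Gad2* was at 14.3, 9.23, 8.29 and 15.6 against 12.4, 6.35, 8.63 and 5.26 FPKM (log2 fold change -0.56 ± 0.31, padj 0.345). Both overlapped. *Vip* (0.593, 0.258, 0.300 and 1.21 against 0.427, 0.204, 0.374 and 0.149 FPKM) and *Pvalb* (0.377, 0.327, 0.182 and 0.051 against 1.12, 0.651, 0.273 and 0.803 FPKM) did not pass the filter on low values in these 8 cultures. Fitted without the filter, their log2 fold changes were -0.70 ± 0.47 (padj 0.58) and 1.29 ± 0.49 (padj 0.331). Of the 10 genes, 6 were lower at an unadjusted p under 0.05, against 7.92% of all genes tested.

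With the OGD effect averaged over both drug arms in one fit of all 16 cultures, the comparison had more cultures behind it. *Sst* fell by 1.72 ± 0.30 on the log2 scale (padj 0.00205), *Lhx6* fell by 1.26 ± 0.31 (padj 0.00848) and *Npy* fell by 1.09 ± 0.23 (padj 0.00496), and these 3 genes were called. Of all 16313 genes tested, 2.01% were called lower and 2.79% higher. *Reln* (-0.91 ± 0.19, padj 0.00447), *Slc32a1* (-0.83 ± 0.16, padj 0.00273), *Vip* (-0.94 ± 0.31, padj 0.0337) and *Calb2* (-0.69 ± 0.22, padj 0.0278) fell at padj of at most 0.05 but by less than 1 on the log2 scale. Thus 7 of the 10 genes fell at this padj, against 13.7% of all genes. *Vip* passed the filter only through the CONTROL groups (means of 0.852 and 0.591 FPKM, against 0.301 and 0.289 after OGD), and 6 of the 8 genes above the filter in every group fell. In *Sst*, *Slc32a1* and *Reln* all 8 OGD cultures were below all 8 CONTROL cultures, which held for 2.42% of all genes. In *Slc32a1* the nearest values, 12.33 FPKM in OGD-TIA and 12.48 in CONTROL-TIA, again nearly met. In *Reln* 41.03 FPKM in OGD-VEH and 41.72 in CONTROL-VEH nearly met too. The call of *Npy* was lost without CONTROL-VEH 4 (-0.96) or OGD-TIA 15 (-0.98), where it fell short of 1 in size only.

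*Pvalb* was called in the other direction, with a log2 fold change of 1.01 ± 0.33 (padj 0.0309). It passed the filter only through the OGD groups (means of 0.798 and 0.712 FPKM, against 0.449 and 0.234 in the CONTROL groups), so it entered the test through the groups in which it was higher. It also lay at the fold threshold, rested on a median of 9.3 estimated reads per culture, and lost its call in 12 of the 24 alternative settings in which it could be fitted, among them the removal of any one of 8 cultures. *Gad1* (-0.52 ± 0.22, padj 0.0857) and *Gad2* (-0.46 ± 0.22, padj 0.118) missed the threshold. The median over the 10 genes was -0.87, against 0.08 over all genes tested.

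The isoforms of *Gad1* and *Gad2* bore on these values. *Gad1* lies on chromosome 2, from 70553072 to 70602014 on the plus strand (GRCm38, GENCODE M21), with 8 isoforms in the table. *Gad1-204*, a partial coding transcript of 398 bases, made up a median of 61.7% of the summed FPKM but 16.5% of the estimated reads, because FPKM divides by length. *Gad1-206*, a processed transcript of 2996 bases, held a median of 66.6% of the reads, and the coding isoform *Gad1-201* of 3355 bases held 9.32%. The summed FPKM of *Gad1* therefore follows a short isoform. OGD-TIA 14, the lowest culture for *Gad1* at 46.5 FPKM, had 24.998 FPKM of *Gad1-201* and 12.044 FPKM of *Gad1-204*, whereas the other 15 cultures had less *Gad1-201* than *Gad1-204*. Its low sum came with a different split of reads between isoforms. *Gad1-205*, chosen after its values were seen and not tested, was at 3.59, 9.94, 10.9 and 10.8 FPKM in OGD-VEH, at 2.71, 2.61, 3.41 and 7.64 in OGD-TIA, and at 1.94 to 6.96 in the 8 CONTROL cultures. Because eXpress divides shared reads by probability, the level of a single isoform is uncertain.

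**Figure D3:**
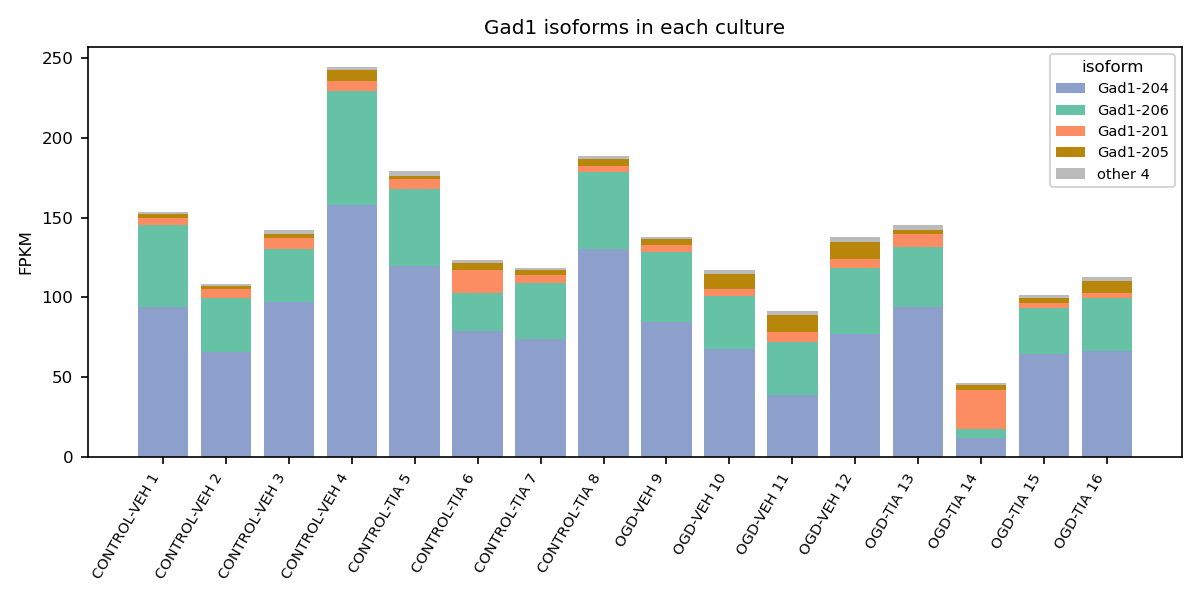
FPKM of the *Gad1* isoforms stacked for each of the 16 cultures, with the 4 largest isoforms in colour and the other 4 in grey. *Gad1-204* and *Gad1-206* make up most of the sum except in OGD-TIA 14, where *Gad1-201* (24.998 FPKM) is the largest.

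For *Gad2*, the full-length coding isoform *Gad2-201* (5744 bases) had 10.0 ± 2.56 FPKM in CONTROL-VEH, 9.59 ± 1.49 in CONTROL-TIA, 6.01 ± 2.23 in OGD-VEH and 6.31 ± 1.66 in OGD-TIA (SD, n = 4). The short processed transcript *Gad2-202* (721 bases) varied from 0 to 4.60 FPKM over the 16 cultures. It added up to 45.3% of the summed FPKM but at most 8.9% of the reads. When isoforms were weighted by length, *Gad2* fell by 0.65 on the log2 scale after OGD over both arms (padj 0.00753), and with coding isoforms alone it fell by 0.69 (padj 0.00724). *Gad1* did not pass under either choice (-0.30, padj 0.108, and -0.54, padj 0.052). Without OGD-VEH 9 the summed FPKM of *Gad2* fell as well (-0.57, padj 0.0416). The statement that *Gad2* missed the padj threshold thus holds for the summed FPKM of all cultures and not for these alternatives.

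The drug itself was compared next. Without OGD (CONTROL-TIA against CONTROL-VEH), the 9 of the 10 genes that passed the filter had log2 fold changes between -0.56 and 0.13, all with padj 0.999. The groups overlapped in each of the 10 genes, while 1.09% of all genes did not overlap with CONTROL-TIA lower and 0.965% with it higher. No gene of the table was called by limma in this comparison (621 of 16170 had an unadjusted p under 0.05). The standard errors of these genes were 0.19 to 0.49 on the log2 scale, and a padj above the threshold does not show that the genes did not differ.

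After OGD (OGD-TIA against OGD-VEH), the largest estimates among the 10 genes were those of *Sst* (0.83 ± 0.52, padj 0.553), *Lhx6* (0.80 ± 0.54, padj 0.561) and *Calb2* (0.41 ± 0.23, padj 0.551). The other 6 genes that passed the filter lay between -0.35 and 0.14. The groups overlapped in each of the 10 genes, while 2.51% of all genes did not overlap with OGD-TIA lower and 1.30% with it higher. No gene of the table was called by limma (1293 of 16351 had an unadjusted p under 0.05). This comparison uses the same OGD-VEH cultures as the first one, so OGD-VEH 9 weighs on both. Without it, *Sst* differed by 1.34 and *Lhx6* by 1.33 on the log2 scale, and neither was called.

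The difference between the 2 OGD effects was tested directly (the effect with TIA minus the effect with vehicle, 16 cultures). It was 0.83 ± 0.61 for *Sst* (padj 0.723), 0.81 ± 0.61 for *Lhx6* (padj 0.728) and 0.66 ± 0.44 for *Calb2* (padj 0.722), and between -0.36 and 0.57 for the other 7 genes. None of the 10 genes, and no gene of the table, was called by limma (988 of 16313 had an unadjusted p under 0.05). Without OGD-VEH 9 the difference was 1.35 for *Sst* (padj 0.169) and 1.34 for *Lhx6* (padj 0.169). Leaving out each culture in turn gave 0.57 to 1.35 for *Sst*, 0.56 to 1.34 for *Lhx6* and 0.29 to 0.85 for *Calb2*. A call in one arm and none in the other therefore does not show that the OGD effects differed.

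Ratios within a culture do not depend on the scaling between cultures, and 3 ratios were compared in 4 group comparisons by two-sided exact permutation tests, for which the smallest p is 0.0286. The log2 ratio of *Slc32a1* to *Gad1* was -3.34 ± 0.18 (SD, n = 4) in CONTROL-VEH and -3.84 ± 0.28 in OGD-VEH, a difference of -0.50 (exact p = 0.0286, and 0.343 after adjustment over the 12 tests). The log2 ratio of *Gad1* to *Slc17a7*, the vesicular glutamate transporter of excitatory cortical neurons, was 1.65 ± 0.50 in CONTROL-VEH and 2.84 ± 1.05 in OGD-VEH, a difference of 1.19 (exact p = 0.0571, adjusted 0.343). In the TIA arm it was 1.58 ± 0.27 in CONTROL-TIA and 1.56 ± 0.91 in OGD-TIA (exact p = 0.971, adjusted 1.0). The log2 ratio of *Gad1* to *Gad2* was 3.79 ± 0.44 in CONTROL-VEH, 3.69 ± 0.10 in CONTROL-TIA, 3.77 ± 0.33 in OGD-VEH and 3.58 ± 0.63 in OGD-TIA. No ratio passed after adjustment, and the direction of the *Gad1* to *Gad2* ratio after OGD turned with the handling of isoforms (0.49 with vehicle when weighted by length, against -0.02 for the sum).

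The genes whose profiles over the 16 cultures were most like those of the called genes were searched among 16313 genes, by the root mean square difference of the centred log2 values, as a description with no test. For *Sst* the nearest was *Lhx6*, at 0.28 on the log2 scale, against a spread of 1.07 in *Sst* itself, and then the long non-coding RNA gene *Snhg11* at 0.30. For *Lhx6* the nearest were *Kcnc2*, which encodes the potassium channel Kv3.2 of fast-spiking and somatostatin interneurons, at 0.23, and *Snhg11* at 0.24. For *Npy* they were *Pnoc*, the prepronociceptin gene, at 0.36 and *Ndnf*, a marker of neurogliaform interneurons, at 0.37. *Gad1* was nearest to *Dlx1as*, transcribed antisense at the *Dlx1* locus, at 0.28 and to *Zmat4* at 0.30. For *Pvalb* the distances of 0.43 to *Crlf3* and to *Cdrt4* stood against a spread of 0.81 on few reads. The points share libraries and the OGD split, so a small distance says that genes followed the same cultures and no more.

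**Figure D4:**
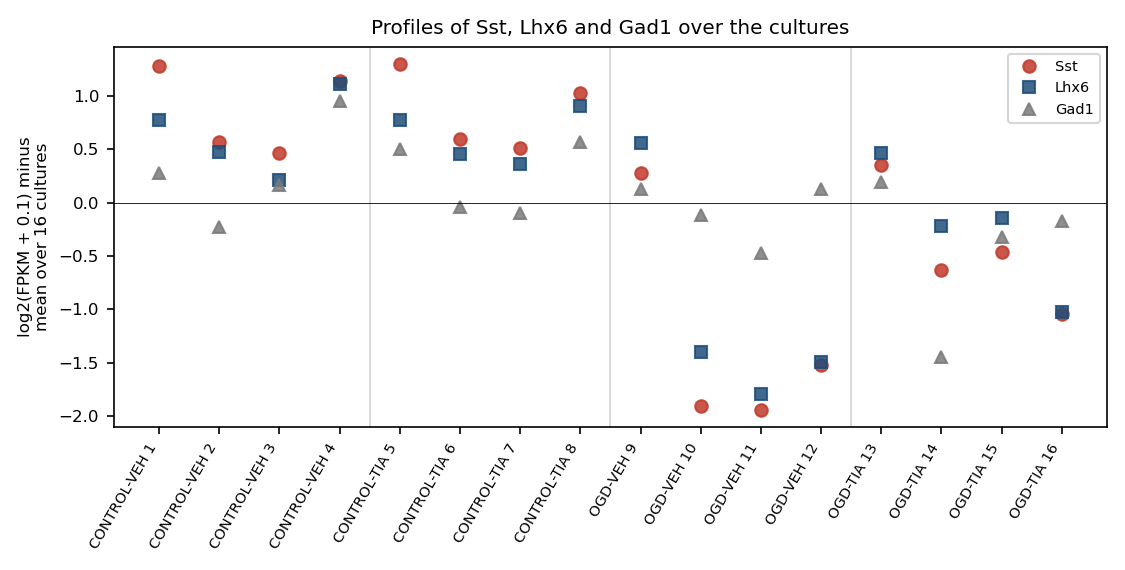
Log2(FPKM + 0.1) of *Sst* (circles), *Lhx6* (squares) and *Gad1* (triangles) in each of the 16 cultures, each gene centred on its mean over the cultures. *Sst* and *Lhx6* sit close together in each culture and are lowest in OGD-VEH 10, 11 and 12, while *Gad1* spreads less and is lowest in OGD-TIA 14.

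Other genes of inhibitory neurons were then set beside the 10, by the same OGD effect over both arms. Their background is that 13.7% of all genes fell and 18.8% rose at padj of at most 0.05. Of 22 further interneuron subtype markers, 20 passed the filter, 12 fell and 0 rose, with a median log2 fold change of -0.67. Among those called were *Kcnc2* (4.43 ± 1.44 FPKM in CONTROL-VEH and 1.51 ± 0.996 in OGD-VEH, SD, n = 4, which fell by 1.23 over both arms), *Lamp5* (fell by 1.25) and *Ndnf* (fell by 1.13), which mark neurogliaform cells, and *Calb1*, the calbindin gene (14.7 ± 4.09 and 5.23 ± 4.03 FPKM, which fell by 1.44). The fifth called was *Cort* (fell by 1.29), named after its values were seen, which encodes cortistatin, a peptide related to somatostatin. *Lamp5* passed the filter only through the CONTROL groups (0.862 ± 0.384 FPKM in CONTROL-VEH and 0.269 ± 0.050 in OGD-VEH).

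Interneuron transcription factors gave another picture. Of 20 listed genes, all transcription factors but *Elfn1*, 19 passed the filter, 7 rose and 2 fell, and the median was 0.47. *Elfn1* was among the 19 (0.04 ± 0.15). The number that rose was 6 to 10 over the alternatives and the removal of each culture. In none of the 19 did all OGD cultures lie apart from all CONTROL cultures. Within the TIA arm alone, 4 were higher and 2 lower without overlap. The summed level of the list was 268 to 476 FPKM in CONTROL-VEH and 259 to 685 in OGD-VEH. That sum was 228 to 345 FPKM in CONTROL-TIA and 213 to 546 in OGD-TIA. The called genes all rose: *Sp8* (9.68 ± 4.10 FPKM in CONTROL-VEH and 29.7 ± 11.6 in OGD-VEH, log2 fold change 1.14 over both arms), *Gsx2* (1.11), and *Sox6* (12.4 ± 1.80 and 34.9 ± 19.9 FPKM, 1.05). *Gsx2* and *Sp8* are factors of ventral progenitors and their young offspring, and *Sox6* acts downstream of *Lhx6* and also in the oligodendrocyte lineage. The 2 that fell, named after their values were seen, were *Npas1* (by 0.99) and *Maf* (by 0.39), which later interneurons express. A single factor fell when CONTROL-VEH 3, CONTROL-TIA 5 or 8, OGD-VEH 10 or 11, or OGD-TIA 14 or 15 was left out. *Lhx6* thus moved against most factors of this list that passed the test. Markers of other cells moved in the same cultures: of 8 oligodendrocyte lineage markers, 7 passed the filter, 5 rose and 1 fell, with *Olig2* (1.07), *Sox10* (1.17) and *Pdgfra* (1.19) called, and their summed level was 177 to 213 FPKM in CONTROL-VEH, 159 to 194 in CONTROL-TIA, 244 to 676 in OGD-VEH and 225 to 438 in OGD-TIA. Of 10 astrocyte markers, all passed the filter, 3 rose and 0 fell, with *Sox9* (1.0) and *Aldh1l1* (1.03) called, and summed levels of 813 to 1690, 705 to 934, 1090 to 2730 and 825 to 2080 FPKM in the same order. The number of astrocyte markers that rose was 8 without CONTROL-VEH 4 and 5 without OGD-VEH 9. No marker of either list was at 0 in all cultures. Their part in the results on the interneuron genes was not tested.

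Genes of GABA uptake, breakdown and chloride transport fell by a smaller median than the 10 genes. Of 15 listed, 13 passed the filter, 5 fell and 0 rose (1 without OGD-VEH 9), with a median of -0.24 and none called at the fold threshold. Of all genes, 13.7% fell. The chloride transporter gene *Slc12a5*, named after its values were seen, was at 68.3 ± 9.76 FPKM in CONTROL-VEH and 30.9 ± 18.95 in OGD-VEH. With TIA it was at 67.4 ± 6.00 in CONTROL-TIA and 46.1 ± 10.6 in OGD-TIA. Among those that fell was *Gphn* (gephyrin, the scaffold of inhibitory synapses, -0.31 ± 0.06). Excitatory and general neuronal genes fell as well. Of 15 glutamatergic markers, 9 fell and 1 rose, with a median of -0.53, and *Slc17a7* (49.3 ± 1.81 FPKM in CONTROL-VEH, 19.7 ± 13.2 in OGD-VEH, fell by 1.11) and *Camk2a* (fell by 1.39) were called. Of 15 pan-neuronal markers, 10 fell and 0 rose, with a median of -0.55, and *Syt1*, the synaptotagmin of fast release, was called (fell by 1.11). The summed pan-neuronal level was 5920 to 6530 FPKM in CONTROL-VEH, 5940 to 6150 in CONTROL-TIA, 2620 to 5370 in OGD-VEH and 3510 to 5780 in OGD-TIA. The median of -0.87 over the 10 interneuron genes thus stood beside medians of -0.53 (glutamatergic) and -0.55 (pan-neuronal). With vehicle the medians were closer, at -0.96, -0.84 and -0.71 in the same order. With TIA they were -0.80 (8 interneuron genes past the filter), -0.27 and -0.32. The difference between the lists was not tested.

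*Reln* and *Calb2* are also markers of Cajal-Retzius cells. Of 9 such markers, the 2 genes included, 4 passed the filter and 4 fell (2 without CONTROL-TIA 8), and the defining transcription factor *Trp73* was low, at 0.558 ± 0.155 FPKM in CONTROL-VEH and 0.254 ± 0.047 in OGD-VEH. Of 10 markers of striatal projection neurons, which also use GABA, 9 passed the filter, 4 fell and 0 rose. The number that fell was 1 or 2 when CONTROL-VEH 3, CONTROL-TIA 5, 7 or 8, OGD-VEH 10 or 12, or OGD-TIA 15 or 16 was left out. Those with the smallest p over both arms were *Drd1* and *Rarb*. *Drd1* was at 1.69 ± 0.194 FPKM in CONTROL-VEH, 0.963 ± 0.732 in OGD-VEH, 2.48 ± 0.309 in CONTROL-TIA and 1.59 ± 0.971 in OGD-TIA. *Rarb* was at 3.67 ± 0.618, 3.40 ± 1.005, 4.98 ± 0.583 and 2.76 ± 0.352 in the same order, so its fall lay mostly in the TIA arm. *Gad1*, *Gad2* and *Slc32a1* are expressed by these cells too, and the share of each cell type in those genes was not tested. Of 8 vascular and mesenchymal markers 2 passed the filter and 1 fell (*Dcn*, by 0.95, beside *Pdgfrb* at 0.08 ± 0.41), and the 1 microglial marker that passed, *Aif1*, had a log2 fold change of -0.15 ± 0.44.

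**Figure D5:**
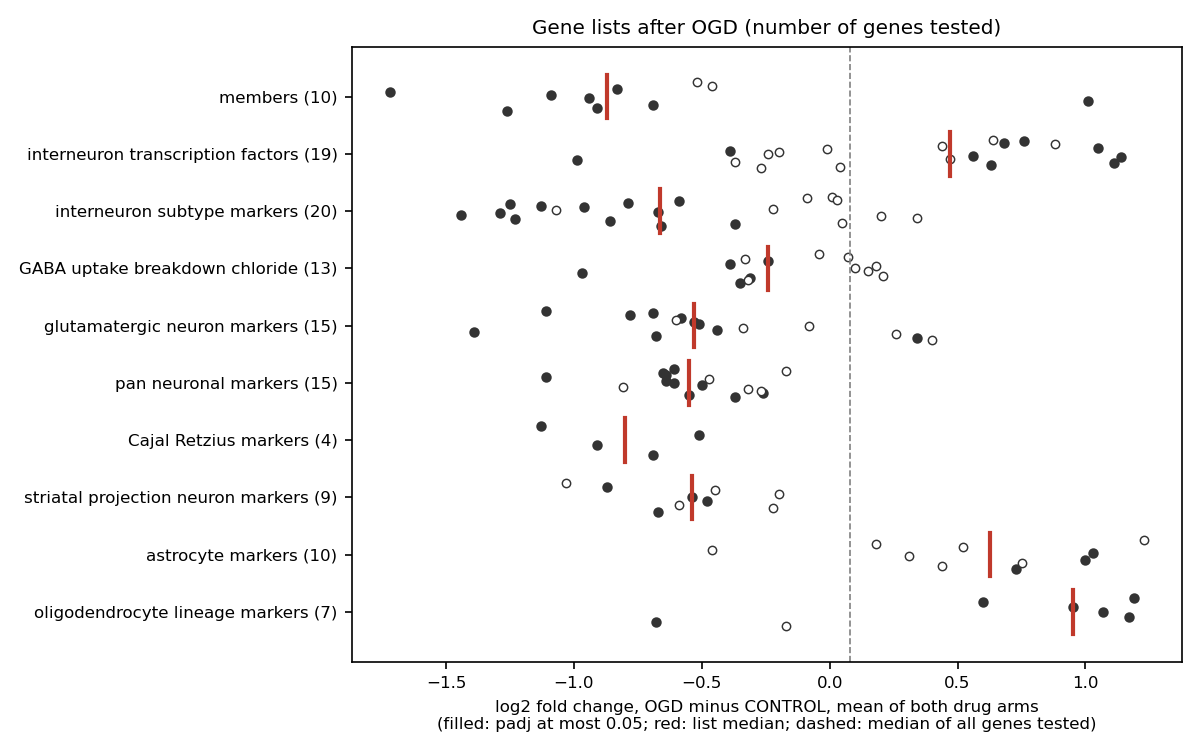
Log2 fold change after OGD, averaged over both drug arms, of each gene tested in 10 lists, with filled points for padj of at most 0.05, a red bar at each list's median and a dashed line at the median of all genes (0.08). The 10 interneuron genes (labelled members) have a median of -0.87 and the subtype markers of -0.67. The transcription factor list, *Elfn1* included, and the oligodendrocyte lineage markers have medians of 0.47 and 0.95.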

How the data were processed

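RNA-seq of 16 mouse primary cortical neuron cultures was analysed. The authors' service provider mapped 50-base single-end reads of stranded mRNA libraries with STAR to GRCm38 (Ensembl 92) and estimated isoforms with eXpress. The deposited values are FPKM per isoform, scaled between libraries by TMM per the file name, with the authors' mapping and scaling already in them. Of 135276 lines, 74 without an identifier were left out. Depth was estimated from the FPKM of 1 read in 17592 genes with a single isoform, and no counting intervals were computed.

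Isoform FPKM were summed per gene symbol (GENCODE M21, 99.89% of isoforms matched) and log2(FPKM + 0.1) was taken, so fold changes of low genes are understated. Genes averaging 0.5 FPKM or more in the cultures compared were tested with limma 3.58.1 in R 4.3.3 (empirical Bayes with trend), with Benjamini-Hochberg adjustment over all of them. A call needed a padj no higher than 0.05 with a log2 fold change no smaller than 1 in either direction. The groups were compared pairwise, the OGD effect was averaged over both drug arms and its difference between arms was tested over all 16 cultures. Ratios were compared by exact permutation tests. The procedure was tested on simulated data. The authors' own count-based test was not applied to FPKM.

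All 10 genes are named whatever they showed. From each other list up to 4 called genes of smallest padj are named, or else the 2 of smallest p, and for *Gad1* and each called gene the 2 genes of most similar profile. One item that this rule names is not reported here. The genes and lists were chosen with earlier results of these data known. Alternatives were pseudocounts of 1 and 0.01, array quality weights, median-ratio scaling, no filter or a filter at 2 FPKM, length-weighted or coding isoforms only, robust empirical Bayes, one fit of all 16 cultures, and leaving out each culture in turn. Python 3.11.15 was used for tables and figures.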

Additional observations from a re-analysis of the deposited data

Results flagged for a closer look

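In 3 of 40 sets of 4 cultures (10 genes in 4 groups), one culture lay apart from the other 3 by more than Dixon's critical value, which chance alone does in about 1 of 20 sets. *Sst* was at 180.6 FPKM in OGD-VEH 9 against 38.9 to 52.09 in the other 3 cultures, and *Lhx6* was at 6.797 FPKM in the same culture against 1.252 to 1.673. The cause was not tested. *Calb2* was at 72.73 FPKM in CONTROL-VEH 4 against 22.54 to 30.3 in the other 3 cultures.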

How the results depend on the processing

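Every estimate of the 10 genes for OGD kept its direction under each alternative in which the gene was fitted. With vehicle, the number of the 10 genes called (1) was 0 without a filter, 3 with array quality weights, 2 with isoforms weighted by length, 3 with protein-coding isoforms and 4 with all 16 cultures in one fit. The number at padj of at most 0.05 (1) was 0 without a filter, 2 with a minimum mean of 2 FPKM or median-ratio scaling, 7 with array quality weights, 4 with length-weighted or protein-coding isoforms and 5 with all 16 cultures. Leaving out each culture gave 0 to 4 for either number, with 4 only without OGD-VEH 9. Over all genes, calls with vehicle (668) ranged from 36 to 1929 over the alternatives and from 1 to 2186 when a culture was left out. Over both arms, the astrocyte markers that rose (3) were 6 with array quality weights, where 1 fell, and 5 with isoforms weighted by length, and the striatal markers that fell (4) were 1 without a filter. In the TIA arm, 1 of the 10 genes reached padj of at most 0.05 when isoforms were weighted by length. Averaged over both arms, 5 genes in place of 8 did so without a filter, and leaving out each culture gave 2 to 5 calls and 5 to 9 genes at this padj.

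Weighted by length, the difference in the log2 ratio of *Gad1* to *Slc17a7* after OGD with TIA became 0.27 and that of *Gad1* to *Gad2* 0.49 with vehicle and 0.22 with TIA, and *Slc32a1* to *Gad1* after OGD with TIA became -0.40 (exact p = 0.0286). With protein-coding isoforms, *Gad1* to *Slc17a7* became 0.03 after OGD with TIA and 0.07 for TIA without OGD, *Gad1* to *Gad2* 0.33 after OGD with vehicle and 0.07 for TIA without OGD, and *Slc32a1* to *Gad1* -0.44 after OGD with vehicle (exact p = 0.0571) and -0.06 for TIA without OGD. When each culture was left out, *Gad1* to *Slc17a7* ranged from 0.71 to 1.52 (OGD with vehicle), -0.34 to 0.38 (OGD with TIA) and -0.27 to 0.14 (TIA without OGD). *Gad1* to *Gad2* ranged from -0.22 to 0.13, -0.38 to 0.13 and -0.29 to 0.04 in the same order, and from -0.46 to 0.06 for TIA after OGD. *Slc32a1* to *Gad1* ranged from -0.60 to -0.41, -0.39 to 0.06 and -0.04 to 0.11. The causes of these changes were not tested. No paired analysis was made because the labels name no preparation and the groups compared share no replicate numbers. Every test treated the cultures as unpaired. Some values followed the numbering, as seen afterwards. *Sst* was highest in CONTROL-VEH 1, CONTROL-TIA 5, OGD-VEH 9 and OGD-TIA 13, and the astrocyte sum in CONTROL-VEH 4, CONTROL-TIA 8, OGD-VEH 12 and OGD-TIA 16. *Npy* did not, being highest in CONTROL-VEH 4, CONTROL-TIA 5, OGD-VEH 9 and OGD-TIA 16. A shared preparation was not tested. With 4 cultures per group, even the difference of 1.35 between the OGD effects on *Sst* without OGD-VEH 9 did not pass (padj 0.169), and the low read numbers of *Vip* and *Pvalb* limit every value of these genes.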
